A study of Mus musculus with 8 samples.

Results

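Trophoblast genes were followed in cells that carry maternal genomes only. The rule took every probe set of the deposited table whose single gene symbol is Cdx2, Elf5, Tfap2c, Gcm1, Tpbpa or Ctsq, and it found 11 of 45101 probe sets, which stand for 5 of the 18194 genes measured. Cdx2 had 2 probe sets, Elf5 had 2, Tfap2c had 3, Tpbpa had 3 and Ctsq had 1. Gcm1 was not analysed here, since no probe set carries it as its only symbol in the platform annotation.

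The series profiled mouse cells on 8 Affymetrix arrays. EB_PSC (2 arrays) are embryoid bodies, floating aggregates in which parthenogenetic stem cells of the strain C57BL/6 differentiated for 15 days. PSC (3 arrays) are the undifferentiated parthenogenetic cells of that strain, isolated on day 6 from blastocysts that had developed from oocytes of superovulated mice stimulated with strontium-chloride, without a sperm. ESC (3 arrays) come from R1, a single line of embryonic stem cells, kept on mouse embryonic fibroblast (MEF) feeder cells with leukemia inhibitory factor, and their strain is not given in the sources used here. No allele or transgene is named for any group, and whether replicate arrays stem from different cultures, animals or PSC lines is not stated, so the p-values cover only the variation among these arrays, part of which may be technical.

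Trophoblast is the outer lineage of the early embryo, which builds the fetal part of the placenta and is set aside from the inner cell mass at the blastocyst stage. Cdx2, Elf5 and Tfap2c are transcription factors of the trophectoderm and of trophoblast stem cells, Gcm1 drives the formation of syncytiotrophoblast in the labyrinth, Tpbpa marks the spongiotrophoblast, and Ctsq encodes a cathepsin protease of trophoblast giant cells. Stem cells taken from the inner cell mass normally form very little trophoblast, and embryos without a paternal genome are known for a poorly developed trophoblast.

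Values are deposited log2 RMA signals, where RMA is a summary of the probes of a probe set after background correction and normalization, so a difference of 1 is a doubling. A group mean below 5.44, the median of all values in the table, is called dim here. Where 1 of 2 compared groups is dim, a difference is given as a lower bound. Such a bound, also where worded as at least, holds for the probe set shown. Other probe sets of the gene can give smaller differences. Each gene is represented by its brightest probe set, and differences are given ± the standard error of the limma fit with p-values adjusted by Benjamini-Hochberg over all genes. Arrays correlated across probe sets with r of at least 0.9906 within groups, against 0.925 to 0.943 between embryoid bodies and either stem cell group and 0.978 to 0.986 between PSC and ESC. Pluripotency genes went with the labels: all 11 examined were lower in EB_PSC than in PSC, where 25.2% of all genes were. In the same comparison 9 of 10 cardiomyocyte genes were higher, where 18.8% of all genes were. For Gapdh, the 3' control signal minus the 5' control signal, a measure of RNA integrity, was -0.09 to -0.06 in EB_PSC, -0.06 to 0.00 in PSC and 0.08 to 0.17 in ESC. For Actb it was 1.09 to 1.17 in EB_PSC, 1.04 to 1.54 in PSC and 0.69 to 1.13 in ESC, so ESC lay highest on the first control and lowest on the second.

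Tfap2c was the bright member, Cdx2 lay close to the limit for dim probe sets, and Elf5, Tpbpa and Ctsq were dim in all 3 groups. In EB_PSC against PSC, Tfap2c fell and Cdx2 rose, while Elf5, Tpbpa and Ctsq did not pass the test. That is 2 of 5 genes, where 43.9% of all genes passed, and the same 2 had arrays that did not overlap, as 62.8% of all genes had. In EB_PSC against ESC the same 2 genes passed, where 44.9% of all genes passed, and again these 2 did not overlap, as was so for 61.1% of all genes. In PSC against ESC only Tfap2c passed, where 20.8% of all genes passed. A filter that asks for a group mean of at least 5.44 in any group kept Tfap2c and Cdx2.

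**Figure D1:**
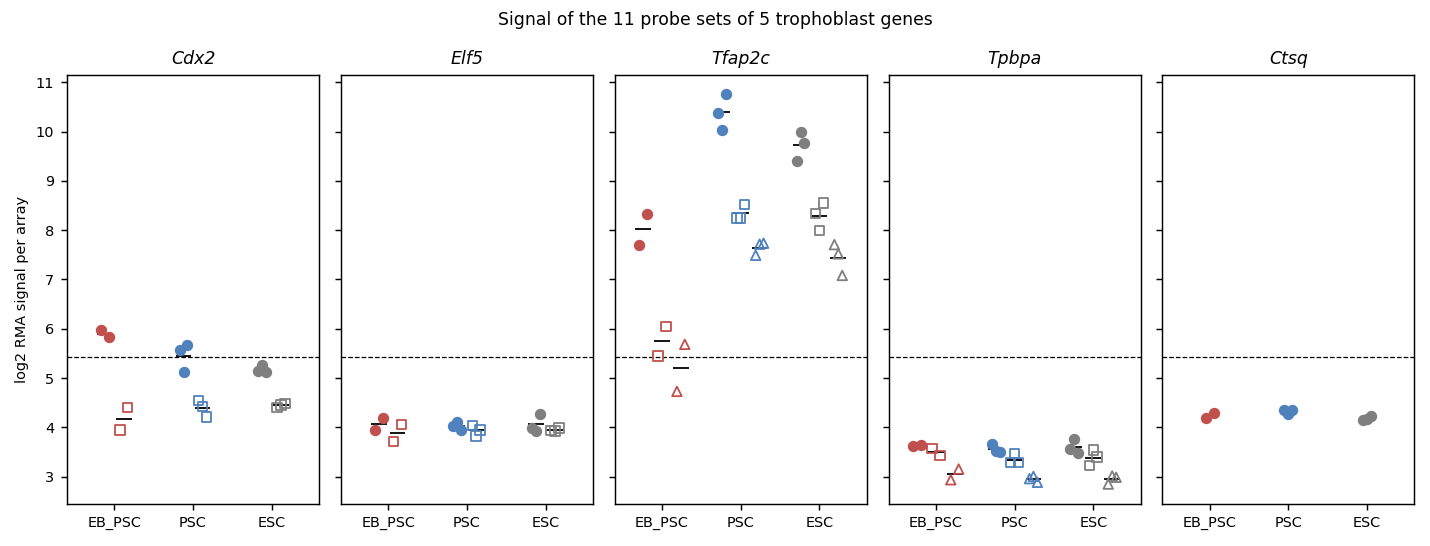
Log2 RMA signal (vertical axis) of each array in EB_PSC, PSC and ESC for the 11 probe sets of 5 genes. Filled points are the brightest probe set of a gene, open squares and triangles its other probe sets, short bars the group means and the dashed line the limit for dim probe sets at 5.44. The 3 Tfap2c probe sets are lower in both EB_PSC arrays than in any stem cell array.

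Tfap2c encodes AP-2 gamma, which acts in trophectoderm and trophoblast stem cells and also in primordial germ cells, mammary epithelium and neural crest. Its brightest probe set read 7.70 and 8.34 in EB_PSC, against 10.37, 10.03 and 10.76 in PSC and 9.41, 9.98 and 9.76 in ESC. Both EB_PSC arrays lay below every stem cell array, and the lowest PSC array lay above the highest ESC array. The mean was 8.02 ± 0.45 in EB_PSC (SD, n = 2), 10.39 ± 0.37 in PSC (n = 3) and 9.72 ± 0.29 in ESC (n = 3).

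In EB_PSC against PSC, Tfap2c fell by 2.37 ± 0.23, which is 5.16-fold lower (limma adjusted p = 2.1e-06). In EB_PSC against ESC it fell by 1.70 ± 0.23, or 3.25-fold (limma adjusted p = 3.75e-05). The 95% confidence interval was -2.87 to -1.87 against PSC and -2.20 to -1.20 against ESC. Each pair of comparisons shares 1 group, so the 2 falls are not independent of each other.

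The other 2 Tfap2c probe sets also fell. The second read 5.45 and 6.05 in EB_PSC, against 8.25, 8.25 and 8.52 in PSC and 8.34, 7.99 and 8.55 in ESC. It fell by 2.59 ± 0.20 against PSC in the limma fit of all probe sets (adjusted p = 6.36e-07), where 34.5% of all probe sets passed, and it fell by 2.54 ± 0.20 against ESC (6.49e-07), where 35.9% passed. The remaining one read 4.73 and 5.69 in EB_PSC, against 7.49, 7.72 and 7.74 in PSC and 7.71, 7.52 and 7.08 in ESC. It fell by 2.44 ± 0.25 (adjusted p = 7.49e-06), and because its mean in EB_PSC, 5.21, is dim, this size is a lower bound. On all 3 probe sets the first EB_PSC array was below the second, by an amount larger than the range among the PSC arrays on both of these other probe sets.

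The rise of Tfap2c in PSC against ESC rested on the brightest probe set. It rose by 0.67 ± 0.21, or 1.59-fold (limma adjusted p = 0.0359), and the adjusted p was 0.0531 when every probe set was tested, where 15.6% of all probe sets passed. The 2 other probe sets differed by 0.05 ± 0.18 and 0.21 ± 0.22 (adjusted p = 0.899 and 0.607 in the fit of all probe sets). On these the arrays of PSC and ESC overlapped. The brightest probe set has an identifier ending in _s_at, which marks probes that can match more than 1 transcript. Without such probe sets the difference was 0.05 (adjusted p = 0.886), with the mean of all probe sets it was 0.31 (0.222), and the call was also lost without PSC 1 (0.0994), PSC 3 (0.154), ESC 1 (0.144) or ESC 3 (0.082), within a range of 0.0066 to 0.886 over all alternatives.

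The order of Tfap2c levels was therefore PSC, ESC and EB_PSC on the brightest probe set. Only the step down to EB_PSC was seen on all 3 probe sets. In a bulk sample, fewer cells of a type and less RNA per cell cannot be told apart.

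Genes of the germ line and of pluripotent cells, where Tfap2c is also read, changed in the same arrays. Of 12 germ cell genes 9 fell in EB_PSC against PSC (Tfap2c is 1 of them) and 0 rose, where 25.2% of all genes fell. Mael, a piRNA pathway gene, fell by 3.08 ± 0.17 (limma adjusted p = 6.86e-09) and Ddx4, the Vasa RNA helicase, fell by 2.45 ± 0.16 (4.19e-08). Prdm14, a regulator of naive pluripotency and germ cell fate, fell by 1.82 ± 0.17 (1.3e-06). The summed linear signal of the 12 genes was 3809 to 5152 in EB_PSC, 6888 to 7650 in PSC and 3062 to 3387 in ESC. Rhox5, an X-linked homeobox gene of the list, was its brightest member in EB_PSC, with 11.43 and 11.94 in EB_PSC, against 11.67, 11.80 and 11.71 in PSC and 8.56, 8.75 and 8.55 in ESC. In EB_PSC against ESC 8 germ cell genes fell and 1 rose, Rhox5, although the sum was higher in EB_PSC, where 25.6% and 19.3% of all genes fell and rose. That of the 11 pluripotency genes was 18090 to 18790 in EB_PSC, 47090 to 52190 in PSC and 58130 to 62410 in ESC. Their part in the fall of Tfap2c was not tested.

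The 3 genes whose pattern over the 8 arrays was most like that of Tfap2c, among 6276 genes that span at least 1 log2 unit, were Slc27a5 (Pearson's r = 0.987), Mylpf (0.974) and Lrrc34 (0.973). Slc27a5 was dim on every array, at 4.04 and 4.39 in EB_PSC, against 5.00, 4.79 and 5.09 in PSC and 4.71, 4.79 and 4.76 in ESC, so its likeness rests on low signals. These values describe 8 arrays in 3 groups, and arrays of a group share their culture type. Mylpf, a myosin light chain gene of fast skeletal muscle, read 8.20 and 8.56 in EB_PSC, against 10.09, 10.14 and 10.26 in PSC and 9.61, 9.66 and 9.45 in ESC. Like Tfap2c it was highest in all PSC arrays and lowest in both EB_PSC arrays.

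Cdx2 encodes the caudal-type homeobox factor that sets the trophectoderm apart from the inner cell mass and later acts in the posterior body axis and the intestine. Its brighter probe set read 5.97 and 5.83 in EB_PSC, against 5.56, 5.13 and 5.66 in PSC and 5.15, 5.27 and 5.13 in ESC. The EB_PSC arrays lay above all others, and 1 PSC array, PSC 2, lay at the level of the ESC arrays. The mean was 5.90 ± 0.10 in EB_PSC (SD, n = 2), 5.45 ± 0.28 in PSC (n = 3) and 5.19 ± 0.08 in ESC (n = 3).

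Cdx2 rose by 0.45 ± 0.16 in EB_PSC against PSC (limma adjusted p = 0.0331) and by 0.71 ± 0.16 against ESC (limma adjusted p = 0.00188). The second is a lower bound for this probe set only, since the ESC mean is dim. In PSC against ESC the difference was 0.27 ± 0.14, with a 95% confidence interval of -0.04 to 0.57 (limma adjusted p = 0.216). The rise against PSC was lost without PSC 2 (0.29, adjusted p = 0.128), EB_PSC 1 (0.38, 0.176) or EB_PSC 2 (0.52, 0.0613), within a range of 0.0144 to 0.427 over all alternatives. Without PSC 2 the difference between PSC and ESC was 0.43 (adjusted p = 0.0432).

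The second Cdx2 probe set did not show the rise. It was dim in all groups, with 3.95 and 4.41 in EB_PSC, against 4.55, 4.42 and 4.22 in PSC and 4.41, 4.45 and 4.49 in ESC. Its difference was -0.21 ± 0.15 against PSC and -0.27 ± 0.15 against ESC (adjusted p = 0.328 and 0.218 in the limma fit of all probe sets). With the mean of both probe sets the Cdx2 difference was 0.12 in EB_PSC against PSC (adjusted p = 0.427) and 0.22 against ESC (0.127).

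Genes of the other tissues in which Cdx2 is read gave a mixed picture in the same arrays. Of 13 gut epithelium genes 3 rose in EB_PSC against PSC and 3 fell, where 18.8% of all genes rose and 25.2% fell. The villin gene Vil1 rose by 1.45 ± 0.14 (limma adjusted p = 1.42e-06) and the keratin gene Krt20 by 2.47 ± 0.23 (1.49e-06), both lower bounds since PSC were dim. Between dim means, Lgals4, a galectin gene, fell by 0.65 ± 0.15 (limma adjusted p = 0.00289), the mucin gene Muc2 fell by 0.54 ± 0.16 (0.0139) and the guanylin gene Guca2a fell by 0.39 ± 0.14 (0.0384). The last 2 calls were lost in some alternatives, at adjusted p up to 0.198 for Muc2 (without PSC 1 or EB_PSC 2) and 0.15 for Guca2a (7 alternatives). The intestinal markers Fabp2 and Isx were dim in all groups. Of 12 caudal mesoderm and tail bud genes 3 rose and 1 fell, among them the retinoic acid hydroxylase gene Cyp26a1, which rose by 3.27 ± 0.18 (5.54e-09), and Evx1, a posterior homeobox gene, which rose by at least 1.08 ± 0.18 (0.000291). The 1 that fell was Tbx6, a T-box gene of paraxial mesoderm (-0.53 ± 0.16, 0.0142, lost without PSC 1, PSC 2 or EB_PSC 1 at up to 0.075). The summed linear signal of the gut list was 480.3 to 605.5 in EB_PSC, 356.1 to 403.7 in PSC and 365.6 to 390.7 in ESC. That of the caudal list was 976.8 to 989.6 in EB_PSC, 486 to 588 in PSC and 494.2 to 528.4 in ESC. Their part in the rise of Cdx2 was not tested.

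Elf5 is an Ets-family factor that sustains the trophoblast stem cell state together with Cdx2 and Eomes and is also needed in the mammary gland. Its brighter probe set read 3.94 and 4.19 in EB_PSC, against 4.03, 4.11 and 3.94 in PSC and 3.98, 3.93 and 4.27 in ESC. The 3 groups overlapped fully and all arrays were dim. The difference was 0.04 ± 0.14 in EB_PSC against PSC, with a 95% confidence interval of -0.27 to 0.34 (limma adjusted p = 0.858), and -0.04 ± 0.13 in PSC against ESC (-0.31 to 0.24, adjusted p = 0.884). The second probe set ranged from 3.71 to 4.06 over the 8 arrays.

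Tpbpa, which encodes trophoblast specific protein alpha, the usual marker of the spongiotrophoblast and its precursors in the ectoplacental cone, was dim on all 3 of its probe sets. The brightest read 3.62 and 3.65 in EB_PSC, against 3.66, 3.52 and 3.51 in PSC and 3.57, 3.77 and 3.47 in ESC. The EB_PSC values fell inside the range of both stem cell groups. The difference was 0.07 ± 0.13 in EB_PSC against PSC (95% confidence interval -0.21 to 0.35, limma adjusted p = 0.699) and -0.04 ± 0.12 in PSC against ESC (-0.29 to 0.21, adjusted p = 0.87). The other 2 probe sets ranged from 3.23 to 3.57 and from 2.85 to 3.16 over the 8 arrays.

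Ctsq encodes cathepsin Q, a placental cysteine protease used as a marker of the giant cells that line the maternal blood sinusoids of the labyrinth. Its probe set read 4.18 and 4.30 in EB_PSC, against 4.36, 4.27 and 4.36 in PSC and 4.15, 4.17 and 4.24 in ESC. All PSC arrays lay above all ESC arrays, by less than the range among the PSC arrays, and such groups without overlap were found for 36.5% of all genes. The difference in PSC against ESC was 0.14 ± 0.11 (95% confidence interval -0.09 to 0.37, limma adjusted p = 0.416), and in EB_PSC against PSC it was -0.09 ± 0.12 (-0.34 to 0.17, adjusted p = 0.593). For these dim probe sets the intervals bound a difference in signal, and RMA compresses such differences towards 0.

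**Figure D2:**
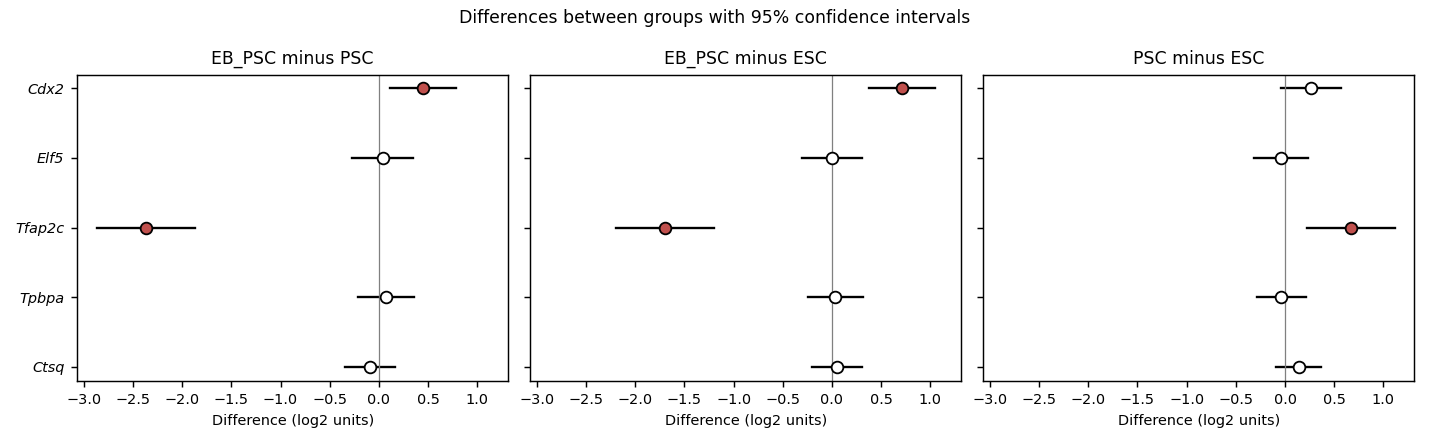
Differences between groups in log2 units (horizontal axis) for the 5 genes, from the limma fit, with 95% confidence intervals as bars. Filled points passed an adjusted p of 0.05. Tfap2c and Cdx2 are filled in both comparisons of EB_PSC, and Tfap2c alone in PSC minus ESC.

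Tpbpa and Ctsq are near neighbours on chromosome 13, in a family cluster of placental genes. In the order of RefSeq protein-coding genes the run from Tpbpb to Cts3 holds 11 genes, all measured, with Tpbpa at place 3, Ctsq at place 5 and 7 further cathepsin genes. Of these 11 genes, 10 were dim in all 3 groups, where 31.8% of all genes were. The exception was Ctla2a, which encodes an inhibitor related to the cathepsin propeptide and was chosen after its values were seen. It read 7.66 and 8.54 in EB_PSC, against 3.22, 3.28 and 3.03 in PSC and 3.25, 3.42 and 3.39 in ESC. It rose by 4.92 ± 0.20 against PSC (limma adjusted p = 4.27e-10), a lower bound because the PSC mean is dim. Its near copy Ctla2b shares a further probe set with it, so signals of the 2 genes may not be separated.

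**Figure D3:**
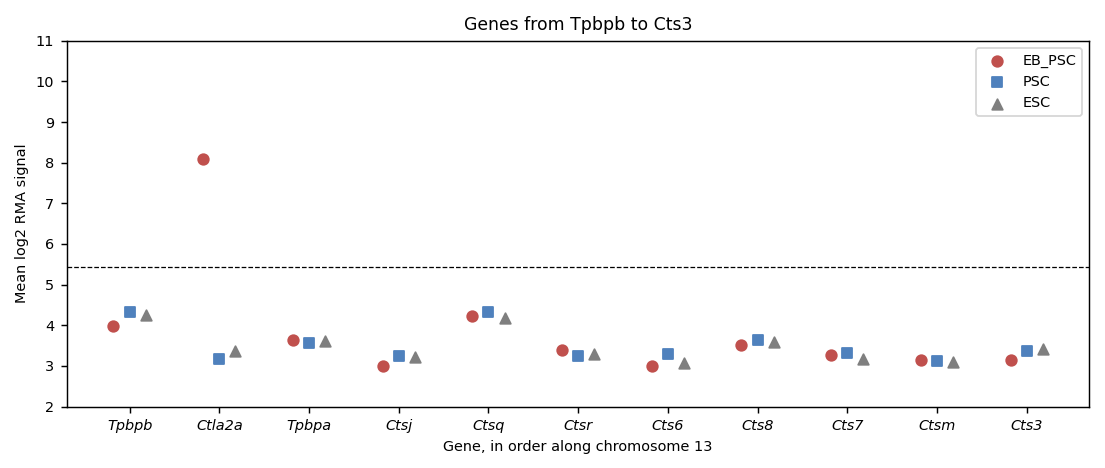
Mean log2 RMA signal (vertical axis) in EB_PSC, PSC and ESC for the 11 protein-coding genes from Tpbpb to Cts3, in their order along chromosome 13 and not to scale in distance. The dashed line is the limit for dim probe sets at 5.44. Ctla2a in EB_PSC, at 8.10, is the single mean above it.

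Promoter windows from 250 bases before to 50 after a gene start, from RefSeq on the build GRCm38.p6, were found for 5 of the 6 genes, Gcm1 included. They show how the letters of Cdx2, a homeobox gene with signal near the limit, differ from those of the 2 dim placental genes on chromosome 13. The capitals mark CpG dinucleotides, and all 3 windows lie on the minus strand and are written 5′ to 3′ on it.
Cdx2, chr5:147307200-147307499: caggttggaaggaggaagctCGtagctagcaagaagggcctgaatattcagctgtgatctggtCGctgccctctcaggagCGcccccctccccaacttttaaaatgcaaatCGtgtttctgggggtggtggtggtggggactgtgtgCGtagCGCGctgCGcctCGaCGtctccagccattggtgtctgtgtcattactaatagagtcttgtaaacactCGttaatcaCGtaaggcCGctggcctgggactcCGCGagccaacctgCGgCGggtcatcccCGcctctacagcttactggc
Tpbpa, chr13:60941887-60942186: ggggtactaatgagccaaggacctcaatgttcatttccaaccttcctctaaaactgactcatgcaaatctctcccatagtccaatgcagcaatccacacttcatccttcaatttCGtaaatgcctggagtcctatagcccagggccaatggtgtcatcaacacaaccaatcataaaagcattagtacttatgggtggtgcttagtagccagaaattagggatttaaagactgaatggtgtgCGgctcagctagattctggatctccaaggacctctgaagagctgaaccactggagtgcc
Ctsq, chr13:61040548-61040847: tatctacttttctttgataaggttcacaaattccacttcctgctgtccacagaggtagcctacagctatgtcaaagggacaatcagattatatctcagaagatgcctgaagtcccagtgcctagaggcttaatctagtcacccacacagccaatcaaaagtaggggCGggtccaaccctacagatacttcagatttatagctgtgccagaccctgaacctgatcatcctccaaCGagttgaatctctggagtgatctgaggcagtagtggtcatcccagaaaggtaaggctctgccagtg

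The Cdx2 window holds 18 CpG dinucleotides, against a median of 7 over 32851 RefSeq windows of the same length. The lower and upper quartiles of these windows are 3 and 20, so the Cdx2 count lies between them. The Tpbpa and Ctsq windows hold 2 each, the Gcm1 window holds 1, and the 2 Elf5 windows hold 3 and 10. The AP-2 motif GCCNNNGGC, searched on both strands, occurs once in the Cdx2 window and once in the Tpbpa window, and in 16.6% of all windows. The caudal-type motif TTTATG, searched on both strands, occurs in the Tpbpa window and in 1 of the Elf5 windows, and in 11.9% of all windows. These matches describe letters only, and no binding was measured.

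Of 16 measured paralogues of the 6 genes, 13 were dim in all groups, including all 7 cathepsin genes of the chromosome 13 cluster, where 31.8% of all genes were. In EB_PSC against PSC 1 rose and 2 fell, where 43.9% of all genes passed in either direction. Elf3, an epithelial Ets factor related to Elf5, read 6.17 and 6.70 in EB_PSC, against 7.92, 7.95 and 7.89 in PSC and 7.75, 7.45 and 7.68 in ESC, and fell by 1.48 ± 0.16 (limma adjusted p = 4.93e-06). The other 2 were dim in both groups, Tfap2d, which rose by 0.43 ± 0.13 (0.0131, up to 0.061 without EB_PSC 1 or EB_PSC 2), and Tpbpb, which fell by 0.35 ± 0.12 (0.0329). With such multi-transcript probe sets left out, the Tpbpb difference was 0.05 (adjusted p = 0.766), and its call was lost in 7 alternatives in all. Tfap2a, which can act beside Tfap2c in trophoblast, differed by 0.20 (adjusted p = 0.263). In PSC against ESC Cdx1 was the 1 paralogue called, where 20.8% of all genes passed in either direction. Cdx1 fell by at least 0.54 ± 0.13 (limma adjusted p = 0.0115, up to 0.0567 without PSC 1 or ESC 3).

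Other trophoblast genes were read from 4 lists, for the trophoblast stem cell, labyrinth, spongiotrophoblast and giant cell classes. The lists were chosen with earlier results of these data known, so their shares are descriptive. Together they hold 85 measured genes, of which 34 (40%) were dim in all groups, against 31.8% of all genes. In EB_PSC against PSC 21 rose (24.7%) and 19 fell (22.4%), against 18.8% and 25.2% of all genes, and the median difference was -0.03, against -0.09 over all genes. In EB_PSC against ESC 24 rose and 13 fell, against 19.3% and 25.6% of all genes. In PSC against ESC 8 rose and 15 fell, against 9.07% and 11.7% of all genes.

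The trophoblast stem cell and trophectoderm list held 21 measured genes, of which 10 rose in EB_PSC against PSC, 4 fell and 7 did not pass. That is 47.6% risen and 19% fallen, against 18.8% and 25.2% of all genes. Eomes, a T-box factor of trophoblast stem cells and of the primitive streak, read 9.80 and 9.03 in EB_PSC, against 6.10, 5.96 and 6.06 in PSC and 6.28, 6.49 and 6.52 in ESC. It rose by 3.37 ± 0.19 (limma adjusted p = 7.15e-09), and the groups did not overlap. Gata3, a trophectoderm factor, read 4.99 and 5.53 in EB_PSC, against 3.78, 3.74 and 3.77 in PSC, and rose by 1.50 ± 0.16 (4.21e-06) between dim means. Keratins of simple epithelia rose, with Krt8 at 5.11 ± 0.17 (4.83e-11) and Krt18 at 4.79 ± 0.14 (2.61e-11), and Dab2, an endocytic adaptor, rose by at least 4.44 ± 0.15 (6.75e-11). The 4 that fell are also read in pluripotent cells, namely Esrrb (-3.62 ± 0.17), Klf5 (-2.38 ± 0.18), Zfp42 (-1.68 ± 0.14) and Sox2 (-1.07 ± 0.16). When probe sets were averaged within a gene, the difference was 2.602 for Dab2 and -1.06 for Klf5. Tead4, which acts upstream of Cdx2 in the trophectoderm, differed by -0.36 (adjusted p = 0.095).

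Several of the risen genes of this list are shared with other tissues that embryoid bodies form. Of 9 visceral and yolk sac endoderm genes 6 rose in EB_PSC against PSC and 1 fell, where 18.8% and 25.2% of all genes did, and their summed linear signal was 2746 to 4624 in EB_PSC, 468.7 to 546.7 in PSC and 405.5 to 412.1 in ESC. Afp and Sox17, defining genes of endoderm, rose by at least 6.53 and 6.12 on their brightest probe sets. For Sox17 the difference was 3.73 after averaging its probe sets and 1.35 without _x_at and _s_at probe sets. Amn, a membrane protein gene of visceral endoderm, was the 1 that fell (-1.25 ± 0.17, limma adjusted p = 4.19e-05). Their part in the rises of Eomes, Dab2 and the keratins was not tested.

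The labyrinth and syncytiotrophoblast list held 17 measured genes, of which 3 rose, 5 fell and 9 did not pass in EB_PSC against PSC. These shares, 17.6% risen and 29.4% fallen, lay near the 18.8% and 25.2% of all genes. Hsd11b2, the enzyme that inactivates glucocorticoids, read 7.80 and 7.69 in EB_PSC, against 4.18, 4.14 and 4.18 in PSC, and rose by at least 3.57 ± 0.12 (limma adjusted p = 6.69e-11). Met, the receptor of hepatocyte growth factor, rose by at least 2.90 ± 0.12 (4.59e-10), or 1.74 after averaging its probe sets, and Lgals3 by 1.78 ± 0.14 (3.11e-07). Among the 5 that fell were Fzd5, a Wnt receptor of the labyrinth (-0.83 ± 0.13, 0.000115), and Tfeb, a factor needed for placental vessels (-0.81 ± 0.17, 0.00123). Dlx3, Ovol2, Cebpa and Vgll1 did not pass the test, and their differences lay between -0.32 and -0.12. Of the others that did not pass, Slc16a1, Slc2a1, Igsf5 and Lifr had a higher mean in EB_PSC than in PSC, and Slc16a3 a lower one.

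The spongiotrophoblast and glycogen cell list held 24 measured genes, of which 4 rose, 6 fell and 14 did not pass in EB_PSC against PSC. Shares of 16.7% risen and 25% fallen were near the 18.8% and 25.2% of all genes. Nrk, an X-linked kinase of the spongiotrophoblast, read 8.97 and 8.88 in EB_PSC, against 4.87, 5.02 and 4.88 in PSC and 4.36, 4.55 and 4.51 in ESC, and rose by at least 4.01 ± 0.12 (limma adjusted p = 3.08e-11). Cdkn1c and Flt1 rose by 2.97 ± 0.21 (8.96e-08) and 1.61 ± 0.14 (9.01e-07). Gjb5, a connexin gene of the spongiotrophoblast, read 6.01 and 5.92 in EB_PSC, against 8.36, 8.57 and 8.56 in PSC and 9.00, 9.01 and 8.96 in ESC, and fell by 2.53 ± 0.12 (1.95e-09). Ascl2 and Phlda2, which regulate spongiotrophoblast growth, fell by 1.25 ± 0.17 (limma adjusted p = 4.74e-05) and 0.75 ± 0.16 (0.00128). Without _x_at and _s_at probe sets Ascl2 differed by -1.89. Of 6 pregnancy-specific glycoprotein genes, 0 rose and 1 fell, where 18.8% and 25.2% of all genes did. The 1 that fell was Psg28 (-1.05 ± 0.28, limma adjusted p = 0.00784), a call lost when EB_PSC 1 was left out.

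The trophoblast giant cell list held 23 measured genes, of which 4 rose, 4 fell and 15 did not pass in EB_PSC against PSC. Each direction made up 17.4% of the list, against 18.8% risen and 25.2% fallen among all genes. The 4 that fell were Bhlhe40, Ada, Rhox6 and Rhox9. Bhlhe40 read 8.83 and 8.93 in EB_PSC, against 10.09, 10.36 and 10.09 in PSC. Ada read 6.12 and 5.75 in EB_PSC, against 7.25, 7.26 and 7.43 in PSC. Rhox6 and Rhox9 fell by 0.59 and 0.53, and both calls were lost in some alternatives, cyclic loess among them. Plac1, an X-linked placental gene, read 10.00 and 9.38 in EB_PSC, against 4.67, 4.53 and 4.53 in PSC and 4.58, 4.69 and 4.96 in ESC. It rose by 5.11 ± 0.18 (limma adjusted p = 7.1e-11), a lower bound because PSC are dim, and both EB_PSC arrays lay more than 4 log2 units above every other array. Serpinb9b, a serine protease inhibitor gene, read 9.69 and 10.09 in EB_PSC, against 5.66, 5.67 and 6.25 in PSC, and rose by 4.03 ± 0.18 (9.64e-10). Hand1, which is needed for giant cell formation and also acts in the heart and in lateral mesoderm, rose by 0.46 ± 0.12 (0.00715), with 6.22 and 6.20 in EB_PSC, against 5.76, 5.82 and 5.66 in PSC. The 13 measured genes of the placental prolactin family from this and the spongiotrophoblast list were dim in all groups, where 31.8% of all genes were. Of these 0 rose and 1 fell, where 18.8% and 25.2% of all genes did. The 1 that fell was Prl8a8 (-0.34 ± 0.12, limma adjusted p = 0.0352). Its call was lost in 7 alternatives, the replicate block and cyclic loess among them.

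**Figure D4:**
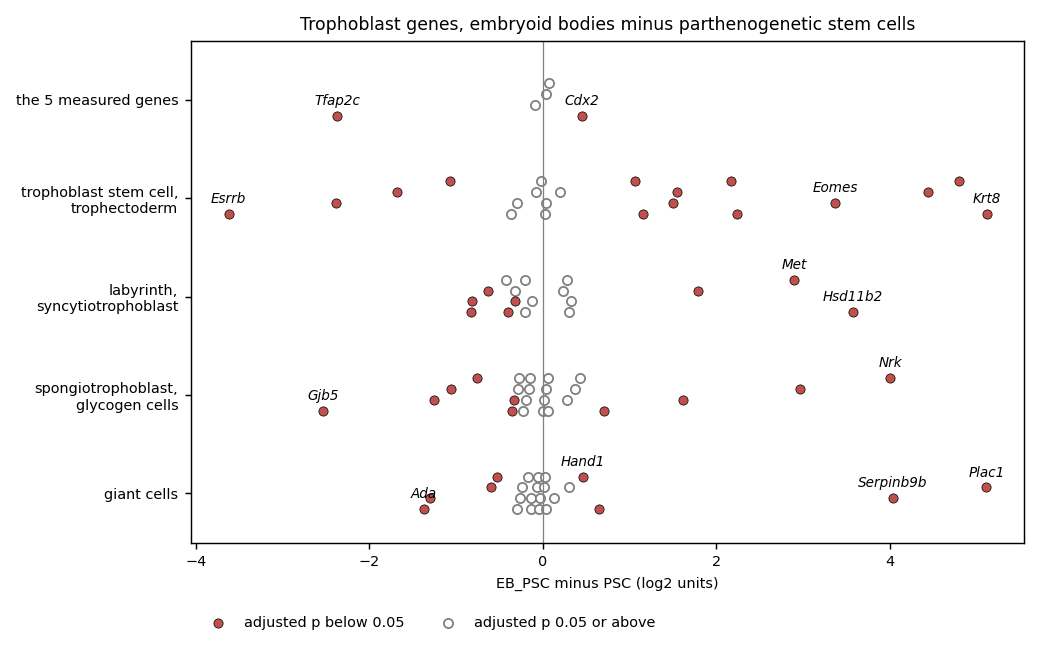
Differences in EB_PSC minus PSC in log2 units (horizontal axis) for the 5 measured genes and 4 lists of other trophoblast genes, 1 point a gene, spread vertically for legibility. Filled points passed a limma adjusted p of 0.05. Plac1 (a lower bound) and Krt8 lie at 5.11 and Esrrb at -3.62.

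**Figure D5:**
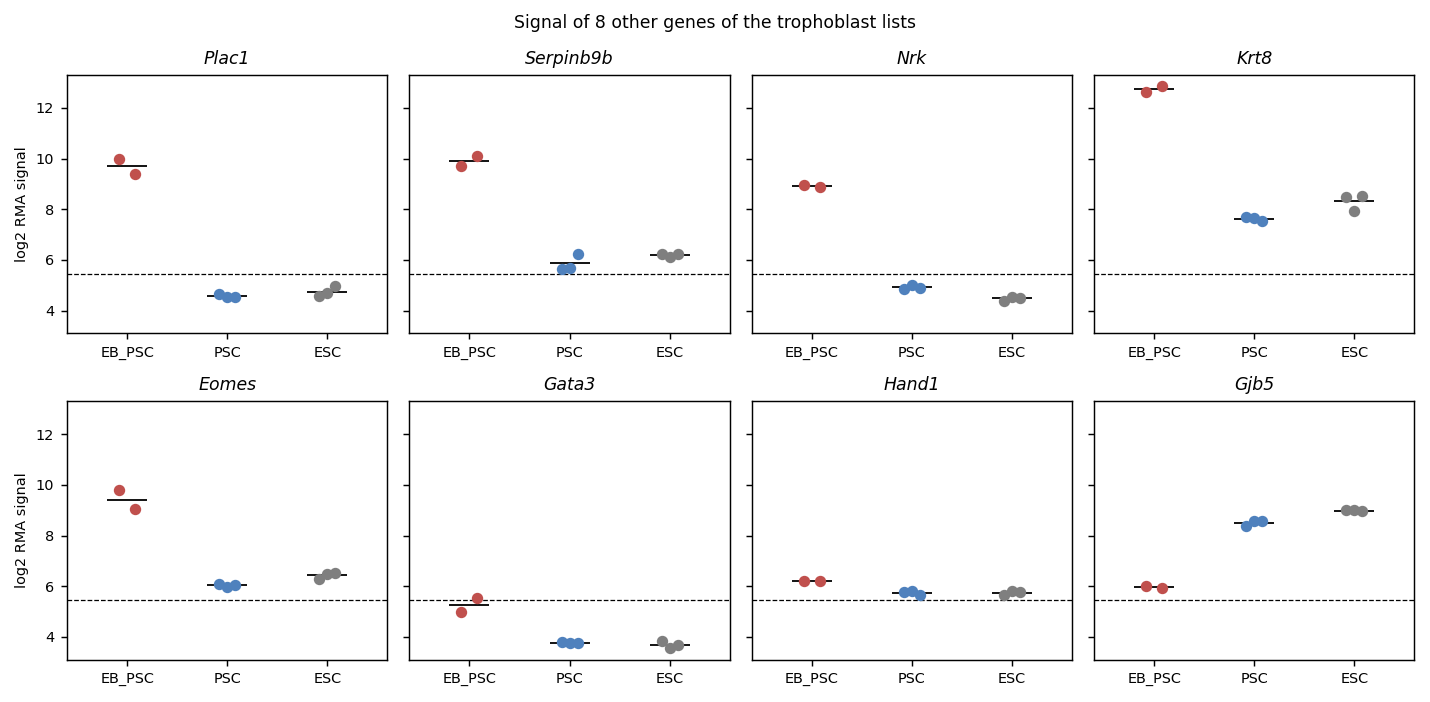
Log2 RMA signal (vertical axis) of each array in EB_PSC, PSC and ESC for 8 genes of the trophoblast lists, with group means as bars and the limit for dim probe sets dashed. Both EB_PSC arrays lie above all stem cell arrays for each gene except Gjb5, where they lie below. These 8 genes were picked for display and do not stand for the lists. Of all 85 list genes 21 rose and 19 fell in EB_PSC against PSC.

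PSC and ESC also differ in cell line and stated culture, and may differ in strain, which is given for PSC only. R1 is known as a male line, whereas parthenogenetic cells carry no Y chromosome. Genome origin cannot be told apart from any of these. The 8 trophoblast-list genes that rose in PSC included Phlda2 (1.51 ± 0.14, limma adjusted p = 8.52e-06), Bhlhe40 (1.43 ± 0.12, 4.58e-06), a basic helix-loop-helix gene linked to giant cells, Ascl2 (1.23 ± 0.15, 0.000115) and Gata2 (0.67 ± 0.12, 0.00138). The 15 that fell included Zfp42 (-2.73 ± 0.12, 1.07e-08), Bmp4 (-1.60 ± 0.17, 2.95e-05) and Klf5 (-1.56 ± 0.16, 2.43e-05, or -0.83 with the mean of its probe sets). Eomes, Gata3 and Plac1 differed by -0.39, 0.08 and -0.17 (adjusted p = 0.125, 0.775 and 0.523). Fibroblast genes, which cover the feeder cells named for ESC, were lower in PSC for 7 of 12, where 11.7% of all genes were lower. Among them Pdgfrb fell by at least 2.05 ± 0.20 (limma adjusted p = 1.67e-05), Col3a1 fell by 1.41 ± 0.19 (0.000203) and Col1a1 fell by 1.28 ± 0.24 (0.0021). With the mean of probe sets these differences were -1.13, -0.84 and -0.73. The summed linear signal of the list overlapped, at 6409 to 7500 in PSC and 7222 to 8455 in ESC, and its bright members Vim and Fn1 differed by -0.06 and 0.06 (adjusted p = 0.873 and 0.812).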

How the data were processed

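RNA of 8 mouse samples was hybridised to 1-colour Affymetrix arrays. The deposited values are log2 signals made by the authors with RMA, per the submitters' processing notes, and with Bioconductor per the labels; software versions and scan batches are not stated there. Values ran from 2.56 to 14.9 and array medians from 5.39 to 5.47. Each group held only 2 or 3 arrays, which limits the precision.

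Of 45101 probe sets, 34958 carried 1 gene symbol in the platform annotation, 932 several and 9211 none; 34754 matched RefSeq by Entrez ID, which changed no symbol. Group differences were fitted over all 8 arrays with limma 3.58.1 in R 4.3.3 (5 residual and 8.07 prior degrees of freedom), on the brightest probe set of each of 18194 genes, with Benjamini-Hochberg adjustment and a threshold of 0.05. Every probe set was fitted separately for the other probe sets of the 5 genes. On simulated data with 50 genes a size, 80% of changes of 1 log2 unit and 20% of changes of 0.5 were called in EB_PSC minus PSC. Far fewer genes changed in the simulation than were called in the data, which makes the adjustment stricter there. These rates therefore need not hold for the data.

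The genes and the lists were chosen with earlier results of these data known. Of 206 listed symbols, 18 were not analysed here. Named genes were all probe sets of the 6 genes, the paralogues, up to 6 called genes of each list in each direction and comparison, and the 3 most similar genes by Pearson's r; list genes named without a call, Ctla2a and any called gene outside that limit were chosen after their values were seen. Same-numbered arrays did not deviate together in every pair (r from -0.247 to 0.216), so the numbers were not taken to pair the samples. Alternatives were other normalizations, probe set choices, a filter on dim probe sets, variance settings, array weights, a replicate block and leaving out each array.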

Additional observations from a re-analysis of the deposited data

How the results depend on the processing

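The fall of Tfap2c in EB_PSC passed the test under every alternative run, at -2.69 to -2.05 against PSC and -2.54 to -1.38 against ESC. The rise of Tfap2c in PSC against ESC did not pass with the mean of all probe sets (0.31), without _x_at and _s_at probe sets (0.051) or in the test of every probe set (0.67), and the rise of Cdx2 did not pass with the mean of all probe sets, at 0.12 against PSC and 0.22 against ESC. Differences close to 0 turned sign: Elf5 in EB_PSC minus PSC with the mean of probe sets (-0.0080), Elf5 in EB_PSC minus ESC with repeated quantile normalization (-0.036), the mean of probe sets (-0.033) and array weights (-0.14), Tpbpa in PSC minus ESC with array weights (0.056), and Tpbpa in EB_PSC minus ESC with the replicate block (-0.012). The replicate block changed no call of the 5 genes, but ended that of Prl8a8 in EB_PSC minus PSC. The cause of these changes was not tested.

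Of the 5 genes, 0 passed in PSC minus ESC with the mean of probe sets, without _x_at and _s_at probe sets and in the test of every probe set, and 1 passed with the mean of probe sets in each comparison of EB_PSC. Over all genes, 3782 passed in PSC minus ESC, against 5693 with array weights; testing all 45101 probe sets in place of genes gave 7015, 15550 in EB_PSC minus PSC and 16188 in EB_PSC minus ESC. Of the trophoblast stem cell list, 5 passed in PSC minus ESC with the mean of probe sets, against 9. Cyclic loess gave 4185 higher and 3566 lower genes in EB_PSC minus PSC, against 3417 and 4578, and 4435 and 3626 in EB_PSC minus ESC, against 3513 and 4652. The filter on dim probe sets gave no value for Elf5, Tpbpa and Ctsq.

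Leaving out each array in turn (a lone EB_PSC array being assumed to vary like the other groups) gave, in PSC minus ESC, Cdx2 0.16 to 0.43, Elf5 -0.10 to 0.069, Tfap2c 0.48 to 0.85 and Tpbpa -0.10 to 0.046, with 0 to 2 of the genes and 2490 to 4142 of all genes called. In EB_PSC minus PSC it gave Cdx2 0.29 to 0.55 and Elf5 -0.084 to 0.16, with 1 to 2 of the genes and 6687 to 8370 of all genes called. In EB_PSC minus ESC it gave Elf5 -0.12 to 0.12, Tpbpa -0.031 to 0.12 and Ctsq -0.0051 to 0.11, with 2 of the genes in each case.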

Other observations

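Surface ectoderm and mammary epithelium, further tissues in which Tfap2c or Elf5 is read, were followed through 2 more lists. In EB_PSC against PSC 18.8% of all genes rose and 25.2% fell. Of 13 surface ectoderm and squamous epithelium genes, 2 rose in EB_PSC against PSC (Perp and Dsp, of desmosomal junctions) and 4 fell (Krt17, Grhl2, Grhl3 and Itgb4). Their summed linear signal was 5051 to 5214 in EB_PSC, 1392 to 1438 in PSC and 2088 to 2156 in ESC. In EB_PSC this sum rests mainly on Dsp (11.44 and 11.49) and Perp (10.57 and 10.61), while Krt5, Krt14 and Trp63 did not pass the test. Of 11 mammary and secretory epithelium genes, 2 rose (Csn3 and Krt19) and 4 fell (Csn2, Lalba, Elf3 and Cldn4), and their summed linear signal was 1959 to 2423 in EB_PSC, 1830 to 2097 in PSC and 1606 to 2056 in ESC. Of 12 fibroblast genes, 10 rose in EB_PSC against PSC and 1 fell, Thy1. Their part in the values of Tfap2c and Elf5 was not tested.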
